A study of Mus musculus with 3 samples.

Results

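In yolk sac cells sorted from Tie-2-Etv2 and control embryos, 7 genes of the system by which cells recognise and engulf dying cells were examined. They are Gas6, Pros1 and Mfge8, which encode secreted bridging ligands, and Axl, Mertk, Tyro3 and Timd4, which encode receptors. The members were the genes of these names among the non-control probes of the array, which gave 8 probes for 7 of 36088 named genes. The array holds 55681 probes in all. The study compared 2 groups, both of cells sorted for 2 surface proteins, VE-cadherin of endothelial junctions and CD45 of blood cells, taken from the yolk sac of mice of a mixed strain (B6/CBA and others) and used directly after sorting. The Tie-2-Etv2 group, with 2 arrays, carried a transgene for Etv2, a transcription factor of early blood and vessel formation, switched on by a Tie-2-Cre transgene, and no age is given for it. The control group, with 1 array, came from E10.5 embryos and is labelled only as control, so whether it carried either transgene is not stated. The Tie-2 promoter drives Cre in endothelial cells and in the blood cells that descend from them, so it is not specific to 1 cell type.

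Dying cells expose the lipid phosphatidylserine on their surface, and phagocytes read it directly or through bridging proteins. Gas6 and protein S (Pros1) carry a vitamin K-dependent domain that binds the lipid, and their other end binds the TAM receptor tyrosine kinases Tyro3, Axl and Mertk. Timd4 (TIM-4) binds the lipid itself and tethers the corpse, while Mfge8 links the lipid to integrins. In the embryo, macrophages take up apoptotic cells and the nuclei that red cell precursors expel, and TIM-4 marks many tissue-resident macrophages of embryonic origin.

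Of the members, 3, namely Gas6, Mertk and Timd4, gave a signal at least 2-fold lower than the control array on both Tie-2-Etv2 arrays, and 0 members were 2-fold higher on both. Among the 19583 genes tested the same was true of 6.64% in the lower direction and 3.92% in the higher. The median log2 difference was -1.48 over the members and 0.07 over all genes tested. All members passed the filter on dim probes, but Timd4, Mertk and Axl passed it through the control array alone, so the filter favoured a lower value for them. The members were also named with results of these data known, so the counts describe them and test nothing. In limma's test with Benjamini-Hochberg adjustment over all probes, 0 members and 0 genes passed an adjusted p of 0.05, which is 0% of the genes tested. Unadjusted, 3 members and 2110 genes had a p under 0.05. The labels do not say whether separate embryo pools gave the 2 Tie-2-Etv2 samples, so the spread between them may be technical. These p-values rest on that spread and on a variance that limma shares over probes, with no spread among controls. In sorted bulk cells, fewer cells of a type and less RNA per cell cannot be told apart.

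The stretches of 250 bases before the annotated start of the 3 lower receptor and ligand genes and of Tyro3, the TAM receptor that was not lower, are shown because Etv2 is an ETS factor and ETS proteins bind around the letters GGAA. Capitals mark GGAA, or TTCC where the letters lie on the other strand. Sequences and coordinates are those of RefSeq on build GRCm38.p6, and all 7 members had a match.
Gas6 (chr8:13494536-13494785, minus strand): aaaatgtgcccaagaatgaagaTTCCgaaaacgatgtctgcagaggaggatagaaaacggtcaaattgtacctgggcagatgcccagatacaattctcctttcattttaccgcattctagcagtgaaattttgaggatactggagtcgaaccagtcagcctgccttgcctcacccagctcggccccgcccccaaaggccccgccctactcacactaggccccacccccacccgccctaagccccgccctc
Mertk (chr2:128698665-128698914, plus strand): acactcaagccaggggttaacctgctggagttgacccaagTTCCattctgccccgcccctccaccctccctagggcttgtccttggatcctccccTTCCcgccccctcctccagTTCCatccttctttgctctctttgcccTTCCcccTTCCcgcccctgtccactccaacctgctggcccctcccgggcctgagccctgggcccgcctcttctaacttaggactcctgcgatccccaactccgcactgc
Timd4 (chr11:46810549-46810798, plus strand): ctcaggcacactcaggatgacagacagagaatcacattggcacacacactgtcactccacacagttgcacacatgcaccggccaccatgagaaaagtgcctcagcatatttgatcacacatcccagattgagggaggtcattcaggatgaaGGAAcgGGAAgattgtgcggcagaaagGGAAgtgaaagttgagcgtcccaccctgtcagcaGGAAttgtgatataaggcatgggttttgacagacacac
Tyro3 (chr2:119799264-119799513, plus strand): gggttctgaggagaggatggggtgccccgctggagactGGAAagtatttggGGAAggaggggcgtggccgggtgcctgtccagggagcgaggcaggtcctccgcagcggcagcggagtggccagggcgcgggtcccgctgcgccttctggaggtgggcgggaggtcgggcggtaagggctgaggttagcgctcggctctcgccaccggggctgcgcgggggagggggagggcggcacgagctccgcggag

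The letters GGAA, searched on both strands, were found once before Gas6, 5 times before Mertk, 4 times before Timd4 and 2 times before Tyro3, against a median of 3 over the 32851 upstream stretches of the same length. They occurred in 93.4% of all such stretches and in all 7 members, so their presence sets no member apart. The longer form GGAAGT occurred before Timd4 alone among the members and in 19.7% of all stretches. In Timd4 it lay within GGAAGTGAAA, starting 72 bases before the start, GGAA followed after any 2 bases by GAAA, the letters of a composite element that ETS and IRF factors bind together in myeloid and lymphoid genes. That pattern occurred in 1 of the 7 members and in 2.3% of all stretches. The letters were chosen after these sequences had been seen, overlap one another, and describe the sequence only.

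Scanned signals are in intensity units and are given with the error that the extraction software assigns. The Tie-2-Etv2 replicate 1 array was dimmer overall: the 75th percentile of probes detected on all arrays was 1199 units on replicate 1 and 2092 on replicate 2, against 2073 on the control array. Levels are therefore also given as log2 signal relative to that percentile, and differences as Tie-2-Etv2 minus control on that scale. A probe counts as detected where the software called it well above background, which held for 43.5% to 48.5% of probes. All 3 arrays lay on 1 slide and were read in 1 scan. Cdh5 and Ptprc, which encode the VE-cadherin and CD45 used for sorting, were detected on all 3 arrays, but the groups differed in the first of them. Cdh5 was 22.1-fold higher than the control on Tie-2-Etv2 replicate 1 and 6.05-fold on replicate 2, whereas Ptprc was 1.34-fold and 1.41-fold lower. The brighter of 2 Etv2 probes was 21.5-fold and 9.3-fold higher than the control on Tie-2-Etv2 replicates 1 and 2. The mean log2 difference of Etv2 was 3.82 on that probe and 2.32 on the other.

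Among the ligands, Gas6 was lowest against the control. Gas6, the ligand that activates all 3 TAM receptors, gave 154 ± 15.5 and 558 ± 55.8 units on Tie-2-Etv2 replicates 1 and 2, against 7520 ± 752 on the control array. Both Tie-2-Etv2 values lay far under the control value, and the probe was detected on all 3 arrays. Its level was -2.44 ± 0.75 (SD, n = 2) in Tie-2-Etv2 cells and 1.86 in control cells, a 19.6-fold lower mean (28.3-fold on replicate 1, 13.6-fold on replicate 2). The log2 difference was -4.29 ± 0.56 (SE; 95% interval -5.86 to -2.73; limma's test, adjusted p = 0.222). Gas6 stood at place 91 from the lowest of the 19583 genes. Its probe lies on chromosome 8 at 13465444 to 13465503 of build mm9, minus strand, and starts at base 2463 of the transcript. Whether the member probes lie in coding or untranslated exon is not annotated in the sources used here.

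Pros1, which encodes protein S, a TAM ligand that binds Mertk and Tyro3 and is also an anticoagulant cofactor, gave 302 ± 30.3 and 965 ± 96.5 units on Tie-2-Etv2 replicates 1 and 2, against 1394 ± 139 on the control array. Both values were under the control value. After scaling only replicate 1 was more than 2-fold lower (2.66-fold), with 1.46-fold on replicate 2. The log2 difference was -0.98 ± 0.50 (SE; 95% interval -2.37 to 0.41; limma's test, adjusted p = 0.637), so a difference in either direction remains within the interval. The probe lies on chromosome 16 at 62928674 to 62928733, plus strand.

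Mfge8, the bridge to the integrins, gave 2339 ± 234 and 2978 ± 298 units on Tie-2-Etv2 replicates 1 and 2, against 3568 ± 357 on the control array. After scaling, the control level of 0.78 lay between the levels of 0.97 and 0.51 on the Tie-2-Etv2 arrays, so the groups overlapped. The log2 difference was -0.05 ± 0.38 (SE; 95% interval -1.10 to 1.01; limma's test, adjusted p = 0.988), and the interval still admits a 2-fold difference. The probe lies on chromosome 7 at 86278689 to 86278748, minus strand.

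The gap between ligands did not depend on how the arrays were scaled. Within each array the scaling cancels from the ratio of 2 probes, and compared with the control array the ratio of Gas6 to Mfge8 was 32-fold lower on Tie-2-Etv2 replicate 1 and 11.3-fold lower on replicate 2. The ratio of Gas6 to Pros1 was 10.6-fold and 9.33-fold lower. These pairs were chosen after the values were seen and received no test.

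**Figure D1:**
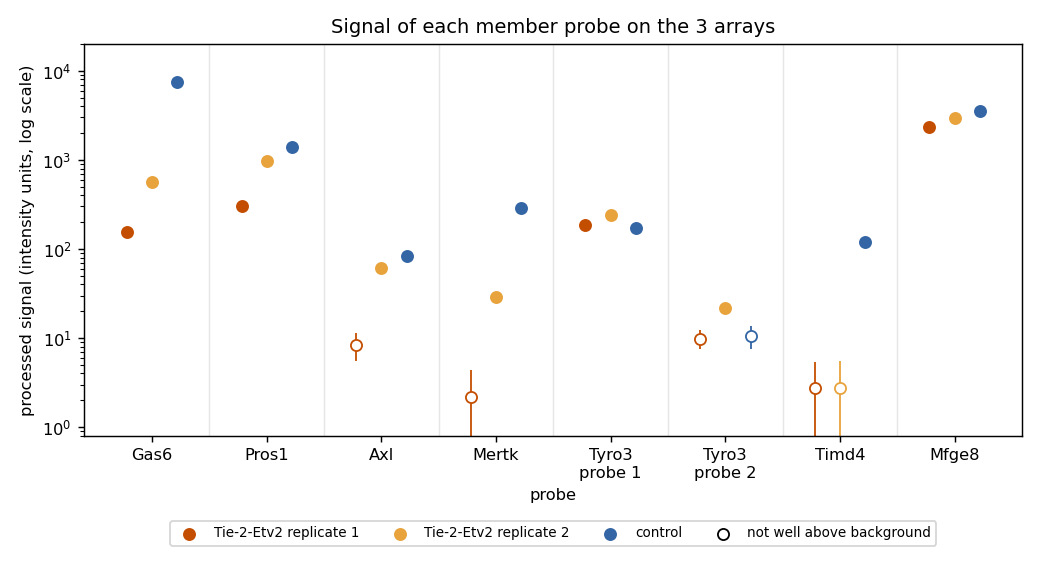
Processed signal of the 8 member probes in intensity units on a log axis, with 1 point for each of the 2 Tie-2-Etv2 arrays and the control array and bars for the error given by the extraction software. Gas6, Mertk and Timd4 lay furthest below the control array on both Tie-2-Etv2 arrays, Mfge8 and both Tyro3 probes showed a narrow spread by comparison, and open points were not well above background. Heights of different probes are not comparable, and the arrays are not yet scaled here.

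The TAM receptors gave unlike values. Mertk, the receptor that macrophages use for engulfment, gave 2.18 ± 2.19 and 29.0 ± 3.71 units on Tie-2-Etv2 replicates 1 and 2, against 289 ± 29.0 on the control array. On replicate 1 it was not well above background, and the value there is a surrogate that the software sets for very dim spots. The lowest level of any detected probe on replicate 1, -6.83, served as a bound there. It is not a detection limit, since the Stab2 probe at -6.73 was not called well above background. Such bounds, here and below, are therefore not strict minima. Taken so, Mertk was at least 15.8-fold lower on replicate 1, and it was 10.1-fold lower on replicate 2. The log2 difference with the surrogate value was -4.79 ± 1.32 (SE; 95% interval -8.48 to -1.10; limma's test, adjusted p = 0.359). The probe lies on chromosome 2 at 128627867 to 128627926, plus strand.

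Axl, the receptor with the highest affinity for Gas6, gave 8.38 ± 2.91 and 60.5 ± 6.66 units on Tie-2-Etv2 replicates 1 and 2, against 82.4 ± 8.94 on the control array. It was not well above background on replicate 1 and close to the control on replicate 2, so the 2 Tie-2-Etv2 arrays disagreed in size. Axl was at least 4.52-fold lower on replicate 1 and 1.37-fold lower on replicate 2. The log2 difference was -1.48 ± 0.95 (SE; 95% interval -4.14 to 1.18; limma's test, adjusted p = 0.744). The probe lies on chromosome 7 at 26542541 to 26542600, minus strand.

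Tyro3, the TAM receptor best known from the nervous system, had 2 probes. The brighter probe gave 186 ± 18.8 and 242 ± 24.4 units on Tie-2-Etv2 replicates 1 and 2, against 173 ± 17.6 on the control array. After scaling, both Tie-2-Etv2 levels (-2.69 and -3.11) were above the control level of -3.58, by 1.86-fold and 1.39-fold. The log2 difference was 0.69 ± 0.37 (SE; 95% interval -0.35 to 1.72; limma's test, adjusted p = 0.666). The 2 probes lie on chromosome 2, plus strand, at 119643759 to 119643818 for the brighter one and 119642510 to 119642569 for the dimmer one, which start at bases 3907 and 2658 of the transcript. The dimmer probe, shown because it was detected on 1 array only, reads as follows.
Tyro3, dimmer probe: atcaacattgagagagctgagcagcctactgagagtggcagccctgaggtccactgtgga

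On the dimmer Tyro3 probe the signal was 9.85 ± 2.37 and 21.9 ± 3.17 units on Tie-2-Etv2 replicates 1 and 2, against 10.6 ± 3.03 on the control array. These units are not scaled, and after scaling the probe was 1.61-fold and 2.05-fold higher than the control. Only the replicate 2 value was well above background, so the probe was not tested. Within arrays, the ratio of Mertk to the brighter Tyro3 probe was at least 29.5-fold lower than the control on replicate 1 and 14-fold lower on replicate 2. That of Axl to Tyro3 was 8.42-fold lower on replicate 1, with the lowest detected level for Axl, and 1.91-fold lower on replicate 2. A ratio of this kind shows that the receptors differed from the control unequally, not that Tyro3 stayed the same.

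Timd4 was detected in the control cells only. The probe gave 2.72 ± 2.73 and 2.75 ± 2.75 units on Tie-2-Etv2 replicates 1 and 2, against 119 ± 12.4 on the control array. Both Tie-2-Etv2 values are surrogates for spots that were not well above background, so they set a bound and not a level. Against the lowest detected level of each array, the mean Timd4 signal of Tie-2-Etv2 cells was at least 8.36-fold lower, with bounds on the log2 difference of -2.71 for replicate 1 and -3.42 for replicate 2. With the surrogates as values the level was -9.18 ± 0.56 (SD, n = 2) in Tie-2-Etv2 cells and -4.12 in control cells, and limma's test gave an adjusted p of 0.199, the smallest value that any gene reached, which Timd4 shares with genes of several other lists, mesenchyme and granulocyte markers included. The 2 surrogates were nearly equal in units. Their gap after scaling (-8.78 on replicate 1, -9.57 on replicate 2) therefore reflects the scaling, and that p measures no spread of Timd4. The probe lies on chromosome 11 at 46657173 to 46657232, plus strand.

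**Figure D2:**
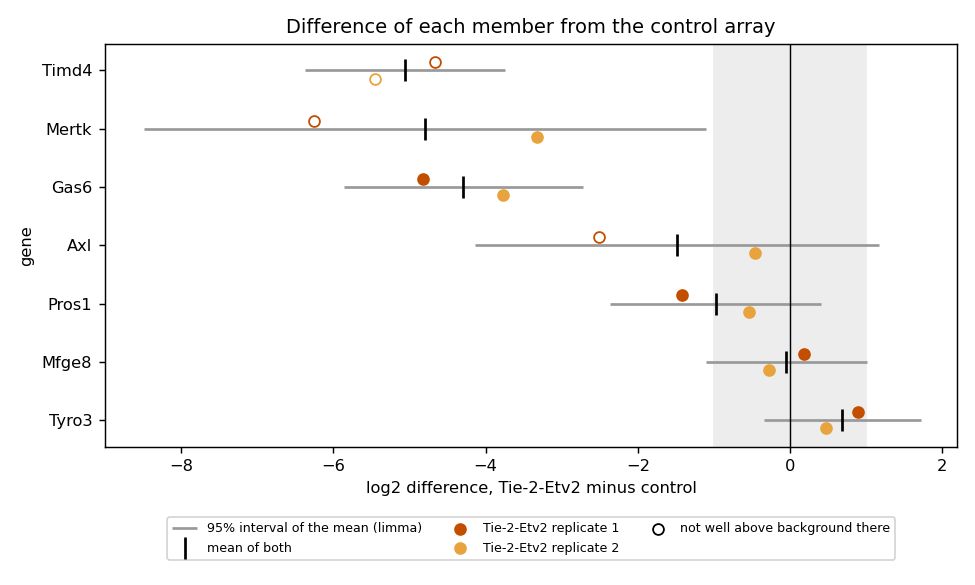
log2 difference of each member from the control array after scaling, with 1 point for each Tie-2-Etv2 array, a tick for the mean of both and a line for limma's 95% interval; the grey band spans differences under 2-fold. Both points of Timd4, Mertk and Gas6 lie left of the band, whereas the intervals of Axl, Pros1, Mfge8 and Tyro3 include 0, and open points were not well above background.

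The processing and 1 library moved some of these values. With normexp background correction, which adds an offset of 50 units to every spot, the log2 differences of the dim members shrank to -1.92 for Mertk, -1.13 for Timd4 and -0.25 for Axl, while Gas6 stayed at -4.02. Leaving out Tie-2-Etv2 replicate 1 gave -0.46 for Axl, -0.54 for Pros1 and -3.33 for Mertk, and leaving out replicate 2 gave -2.51 for Axl, -1.41 for Pros1 and -6.26 for Mertk. The Axl and Mertk values of replicate 1 alone come from spots not well above background, that of Mertk from a surrogate, so they are not measured levels. Members at least 2-fold lower on both arrays numbered 2 with normexp correction, against 3, while the share over all genes was 2.51%, against 6.64%. Around each member spot the surrounding spots on the array, up to 2 rows and 2 columns away, had median differences of -0.05 to 0.44 on replicate 1 and -0.32 to 0.26 on replicate 2. The spots of Axl, Gas6, Timd4 and the dimmer Tyro3 probe each had 1 neighbour bright on the control array alone. Of all non-control spots, 25.7% had at least 1 such neighbour. Whether that touched their values was not tested.

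Among 12284 other genes detected on all 3 arrays, those with the pair of differences nearest to that of Gas6 were Pdlim4 (-4.61 on replicate 1, -3.75 on replicate 2) and Fcgrt (-4.99 and -3.54), at Euclidean distances of 0.21 and 0.29 log2 units over the 2 differences. Tcaf1 and Ptpn9 lay nearest to Pros1 (0.03 and 0.04), Agpat1 and Ywhaz to Tyro3 (0.01 each), and Taf13 and Fsd1l to Mfge8 (0.01 each). Of these 4 members, Gas6 alone had no gene within 0.2 units. At place 91 from the lowest of 19583 genes it has few genes around it, so that distance marks no trait particular to Gas6.

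Other genes of the same process were split by role. Of 86 further efferocytosis genes, 79 were tested, 24 were at least 2-fold lower on both Tie-2-Etv2 arrays and 1 was higher, with a median log2 difference of -0.17. None passed limma's adjusted test, and 23 had an unadjusted p under 0.05. Most of the lower genes encode receptors and opsonins, while the shared engulfment machinery lay close to the control. Over all genes tested, 6.64% were lower and 3.92% higher. The lower receptors Stab2, Cd36 and Cd300lb passed the filter on dim probes through the control array alone, which favoured a lower value. With dim values at the lowest detected level, Cd300lb was only 1.17-fold and 1.92-fold lower. With detection required on all 3 arrays, 19 of 71 pathway genes were lower, against 3.44% of all genes. The lists were chosen with results known and test nothing.

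Of 18 other receptors for phosphatidylserine or apoptotic cells, 15 were tested, 11 were lower and 1 higher, with a median of -2.61. Cd36, a scavenger receptor, was lower by at least 16.5-fold on replicate 1, where its probe was not well above background, and by 15.3-fold on replicate 2. Itgb5, the integrin beta 5 chain that pairs with the alpha V chain to receive Mfge8, was 58.9-fold lower on replicate 1 and 9.68-fold lower on replicate 2. Stab1, which encodes the phosphatidylserine receptor stabilin-1, was 9.52-fold and 8.24-fold lower. Cd300lf, a phosphatidylserine-binding receptor of myeloid cells, was the 1 higher gene, at 2.9-fold and 2.26-fold on the brightest of its 3 probes. The probes disagreed in size, with mean log2 differences from 0.63 to 1.35, the lowest of them under 2-fold. Adgrb1, Megf10 and Scarf1 had no tested probe.

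Of 13 other bridging and opsonising molecules, 11 were tested, 5 were lower and 0 higher, with a median of -1.10. The 3 chains of complement C1q, which coats apoptotic cells, were lower together. The log2 difference of C1qa was -5.77 on replicate 1 and -2.89 on replicate 2, that of C1qb -6.27 and -3.02, and that of C1qc -5.55 and -3.07. The 6 that were neither lower nor higher lay between -1.10 and 0.72.

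Of 20 genes of the engulfment machinery, all tested and all detected on every array, 1 was lower and 0 higher, with a median of -0.04. The lower one, Abca1, exports cholesterol from cells that have taken up corpses, and was 12.4-fold lower on replicate 1 and 11.1-fold lower on replicate 2. The other 19, which include the Rac, Dock and Elmo genes that drive membrane uptake, lay between -0.59 and 0.63. Of 6 nuclear receptors, which switch on lipid handling in engulfing cells, 2 were lower: Nr1h3, which encodes the liver X receptor LXR alpha and is an activator of Abca1, was 6.81-fold and 4.14-fold lower, and Pparg 4.5-fold and 2.89-fold lower. The other 4 lay between -0.23 and 0.65.

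Of 10 find-me, lipid exposure and do-not-eat-me genes, 2 were lower and 0 higher, with a median of 0.44. Cx3cr1, the fractalkine receptor by which phagocytes sense dying cells, was 36.9-fold lower on replicate 1 and 4.87-fold lower on replicate 2. Sirpa, which encodes the phagocyte receptor for the inhibitory signal CD47, was 4.92-fold and 3.25-fold lower. Cd47 itself, named after its values were seen, had log2 differences of 1.34 and 0.998, the second just under the 2-fold limit. The 8 that were neither lower nor higher lay between -0.13 and 1.47. The highest was S1pr1, at 4.19-fold higher on replicate 1 and 1.83-fold higher on replicate 2.

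Of 12 genes for the maturation, shedding and signalling of the TAM system, 11 were tested and 1 was lower: Socs3, a feedback inhibitor that TAM signalling induces, at 8.26-fold and 3.37-fold. The other 10, with Ggcx and Vkorc1 of the vitamin K cycle that Gas6 and protein S need, lay between -0.85 and 1.19. Of the 7 genes of the protein C and S anticoagulant system 6 were tested and 2 were lower. Neither was well above background on replicate 1, so the folds there use the lowest detected level and are not strict minima. Proc, which encodes protein C, was lower by 4.99-fold on replicate 1 and by 2.65-fold on replicate 2. Serpinc1, which encodes antithrombin, was lower by 7.38-fold on replicate 1 and by 2.09-fold on replicate 2. The other 4 lay between -0.17 and 1.88. The highest was Procr, at 9.62-fold higher on replicate 1 and 1.42-fold higher on replicate 2.

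**Figure D3:**
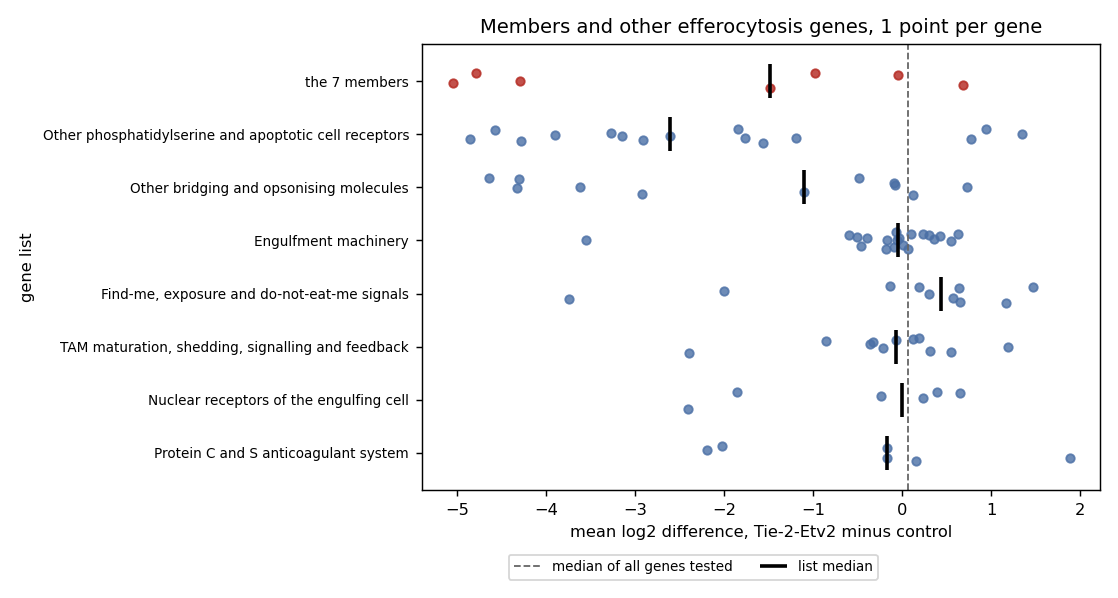
Mean log2 difference of each tested gene, Tie-2-Etv2 minus control, for the 7 members and 7 lists of other efferocytosis genes; thick lines are list medians and the dashed line is the median of all genes tested, 0.07. Receptors and bridging molecules reach below -4, with medians of -2.61 and -1.10, while the engulfment machinery clusters near 0 around a median of -0.04.

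Markers of several cell types differed between the groups beside the members. Most macrophage markers were lower, with 8 of 13 tested at least 2-fold lower on both arrays, 1 higher and a median of -2.30. The other 4, Fcgr3, Itgam, Tyrobp and Spi1, were neither, with mean log2 differences between -0.75 and 1.04. Over all genes tested, the share was 6.64% lower and 3.92% higher. The summed level of the macrophage markers relative to the array percentile was 18.1 and 25.9 on the Tie-2-Etv2 arrays, against 68.5 on the control array. That sum mostly follows its brightest genes, Csf1r and Tyrobp, the highest of the macrophage markers on every array. All 13 were detected on the control array and on replicate 2 and 12 on replicate 1, while Cd163 had no tested probe. Adgre1, a classical mouse macrophage surface antigen, was at -6.13 and -4.28, Mrc1 at -5.28 and -3.32, and Lyz2 at 1.15 and 1.01. The part of macrophage content in the lower Gas6, Mertk and Timd4 signals was not tested.

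Endothelial markers were the other way, with 10 of 13 tested higher (3.92% of all genes), 0 lower and a median of 2.21. Their summed level was 51.6 and 25.3 on the Tie-2-Etv2 arrays, against 10.3 on the control array, where Sox18 and Flt4 were not well above background. That sum mostly follows Egfl7, the highest of them on every array, at log2 levels of 5.39 and 4.42, against 3.06 on the control array. Visceral endoderm markers were lower for 10 of 12, with a median of -4.49 on replicate 1 and -1.18 on replicate 2, and summed levels of 6.82 and 18.1, against 39.9 on the control array. Mesenchyme and mesothelium markers were lower for 6 of 8 tested, with summed levels of 0.19 and 0.13, against 1.47. Of the remaining lists, erythroid markers were lower for 6 of 9, granulocyte markers higher for 4 of 9, and megakaryocyte markers higher for 4 and lower for 2 of 8. The shares over all genes, 6.64% lower and 3.92% higher, stand beside each of these counts. The sort was for VE-cadherin and CD45. All 12 visceral endoderm markers and all 8 tested mesenchyme and mesothelium markers were nevertheless detected on the control array, with Afp at a log2 level of 4.395 there. Whether cells of these types remained after the sort, and their part in the members' differences, was not tested. For 5 of the 7 members, Gas6, Pros1, Axl, Mertk and Tyro3, the gap to the control was wider on replicate 1. The Axl and Mertk values of replicate 1 come from spots not well above background. The medians of the macrophage, endothelial, visceral endoderm, erythroid and granulocyte markers were likewise wider on replicate 1, for macrophages at -3.00, against -1.75 on replicate 2. Those of the mesenchyme markers (-3.36 on replicate 1, -4.10 on replicate 2) and megakaryocyte markers (1.07 and 1.20) were wider on replicate 2.

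**Figure D4:**
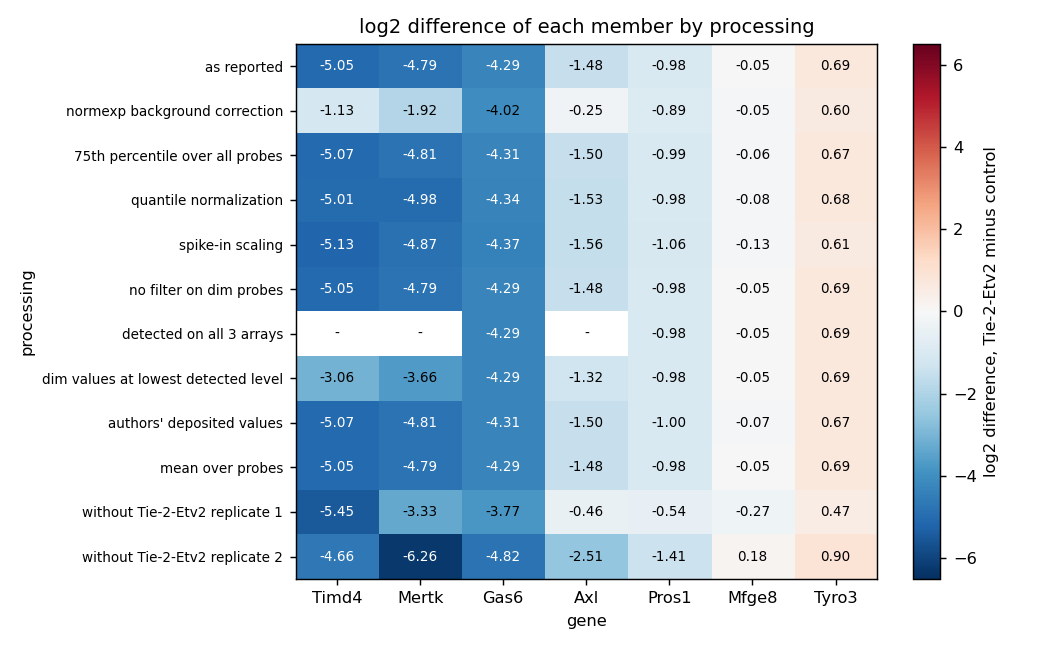
log2 difference of each member, Tie-2-Etv2 minus control, as reported and under 11 other ways of processing; colour and printed number give the same value, and a dash marks a gene left out by the filter. Gas6 stays between -4.82 and -3.77, whereas the dim members Timd4, Mertk and Axl shrink with normexp background correction, and Mfge8 is the 1 member whose sign turns, at 0.18 without replicate 2.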

How the data were processed

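RNA of 3 sorted samples was labelled with Cy3 and hybridised to 1-colour Agilent arrays, 1 per sample, per the labels' protocols. The deposited intensity values come from Agilent's Feature Extraction software (10.7 per the submitters' processing notes, 10.7.3.1 per the file headers), which subtracts background, puts a surrogate in place of very dim signals and does not scale arrays to each other; probe coordinates are on build mm9, per the file headers. The series also has the authors' log2 table, without stated scale or centring. Between arrays it differed from the log2 intensity by a constant (-0.756 for replicate 1 and 0.0161 for replicate 2, each against the control), to within 0.01 for 100% of 55668 probes; every row was centred on its median. Its column medians were 0.136 for replicate 1, 0 for replicate 2 and 0 for the control.

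Control spots and outlier spots (168 to 174 per array) were left out, no spot was saturated, and replicate spots were averaged on the log2 scale. Each array was centred on the 75th percentile of the 22764 probes detected on all 3 arrays, since under 50% of probes were detected. The test took probes detected in control cells, or in both Tie-2-Etv2 samples (26217 probes, 19583 genes), and used limma 3.58.1 (lmFit, eBayes; R 4.3.3, with version 1.17.8 of the data.table package), two-sided, on 1 residual degree of freedom that comes from the Tie-2-Etv2 pair alone; the lone control sample is assumed to vary alike. The smallest p an exact permutation could give here is 0.333. The fit was tested on simulated data. The number of arrays limits precision.

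Names came from RefSeq (GRCm38.p6): an accession named 26575 probes, a symbol 2602 and a synonym 492, while 25999 kept the name of the array design. The probe with the highest mean level stood for a gene. The genes open to naming were all members; Etv2, Tek, Cdh5 and Ptprc; up to 3 genes each way of each pathway list and up to 2 of each marker list, by the smaller of their 2 differences; and the 2 nearest patterns per member detected on all arrays. A few genes beyond these were named to state a limit, after their values were seen. Members and lists were chosen with earlier results of these data known.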

Additional observations from a re-analysis of the deposited data

Results flagged for a closer look

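The dimmer Tyro3 probe, which the filter on dim probes left out, was well above background on Tie-2-Etv2 replicate 2 at 21.9 ± 3.17 units, above the 10.6 ± 3.03 units of the control array, where it was not well above background. On replicate 1 it gave 9.85 ± 2.37 units. After scaling it was 1.61-fold higher than the control on replicate 1 and 2.05-fold on replicate 2. The replicate 1 and control spots were not well above background, so these folds are not measured levels. The brighter Tyro3 probe was 1.39-fold higher than the control on replicate 2.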

How the results depend on the processing

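All 11 alternatives were run. Gas6, Pros1, Axl, Mertk and Timd4 were lower and Tyro3 higher under each that gave a value; the filter for detection on all 3 arrays left out Axl, Mertk and Timd4. In limma's test, genes passing an adjusted p of 0.05 numbered 614 with normexp background correction, which included Gas6 (-4.02) and Mertk (-1.92), and 440 with no filter on dim probes, which included Gas6 (-4.29), Mertk (-4.79) and Timd4 (-5.055), against 0 otherwise; the cause was not tested. Adjusted p in limma's test ranged from 1.62e-15 to 0.339 for Gas6, 0.00173 to 0.54 for Mertk and 0.000402 to 0.282 for Timd4. The lowest of each came from these 2 settings. There limma gave more weight to a variance shared over probes. Its prior degrees of freedom were infinite with normexp correction and 20.1 with no filter, against 2.93 as reported. With normexp correction every member had the same standard error, 0.455, so 1.62e-15 does not rest on the spread of Gas6 between its own arrays. Members 2-fold lower on both arrays numbered 1 of the 4 then tested with detection on all 3 arrays, and 2 of 7 with normexp correction. The share over all genes fell too, to 3.44% and 2.51%, against 6.64% as reported. When 1 Tie-2-Etv2 replicate was left out, 3 to 5 members were 2-fold lower on the array that remained. A limit on 1 array is looser than a limit on both, and the share over all genes was not computed for it. The 5, on replicate 1, include Axl, Mertk and Timd4, whose spots there were not well above background. Pathway genes 2-fold higher numbered 2 with spike-in scaling, 2 with no filter and 0 with the authors' deposited values, against 1. They numbered 2 to 5 on the array that remained when a replicate was left out, again without a share over all genes. Rows of the deposited values are centred on their medians, so the probe of highest level that stands for a gene can be another one there. Etv2 was at 2.30 with them, against 3.82. Whether the choice of probe gave the 0 was not tested. Leaving out replicates gave -0.27 to 0.18 for Mfge8, whose sign turned without Tie-2-Etv2 replicate 2. No paired analysis was possible because there is only 1 control array. Signal over background limits Timd4, Mertk and Axl.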
